A study of Bos taurus with 30 samples.

Results

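The step from the 4-cell to the 8-cell bovine embryo was described with 6 of the 30 ATAC-seq libraries of the study, the 3 control libraries of 4-cell embryos and the 3 control libraries of 8-cell embryos. Libraries were taken by stage and treatment as labelled, a rule that uses no measured value. Embryos were produced in vitro from cattle oocytes fertilized with frozen semen of a Holstein bull, pooled to at least 500 cells, and collected 2 days after insemination (4-cell) or 3 days after it (8-cell), from 3 separate collections for each stage. None of the 6 libraries was exposed to α-amanitin, the inhibitor of RNA polymerase II used elsewhere in the study. Libraries of 4-cell embryos were amplified for 13 PCR cycles and those of 8-cell embryos for 11, and serum was added to the culture on day 3, so that stage, cycle number and serum cannot be told apart. Each library comes from a pool of embryos and of both parental genomes, and differences between embryos or blastomeres were averaged.

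Before the embryonic genome is transcribed, an embryo lives on RNA and protein stored by the oocyte. In cattle, low transcription starts in the first cleavage stages (minor embryonic genome activation, EGA), and the large wave of transcription, major EGA, falls at about the 8-cell stage. ATAC-seq uses a transposase that inserts adapters into DNA left open by nucleosomes, and promoters, enhancers and sites bound by regulatory proteins appear as peaks, stretches where tags exceed the background around them.

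The 8-cell lists held more peaks than the 4-cell lists and covered more of the genome. The 4-cell lists held 42012, 22983 and 14355 peaks in replicates 1, 2 and 3. The 8-cell lists held 125253, 128958 and 156569 peaks. The groups did not overlap, and the shortest 8-cell list was longer than the longest 4-cell list. The mean was 5.18 times higher at the 8-cell stage (26450 ± 14151 against 136927 ± 17111 peaks, SD, n = 3 each, exact two-sided permutation test, p = 0.1). With 3 libraries against 3 an exact test has 20 arrangements and cannot go below p = 0.1, so that no comparison of single values could pass 0.05, and it is stated below whether the libraries of both stages overlapped.

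Peaks covered 21.2, 10.5 and 5.56 Mb in 4-cell libraries and 77.7, 69.7 and 87.1 Mb in 8-cell libraries. The mean covered length was 6.29 times higher at the 8-cell stage (exact permutation test, p = 0.1, no overlap), and 9.72 times higher without 4-cell replicate 1. When peaks under a mean −log10 q of 3 were dropped, the ratios were larger, 10.5 for the number of peaks and 13.0 for the covered length. Wide peaks made up more of the 8-cell lists. Peaks of at least 1 kb were 9.13%, 5.70% and 3.27% of the 4-cell lists and 18.0%, 13.2% and 14.9% of the 8-cell lists, without overlap. The mean difference was 9.35 percentage points (p = 0.1, exact permutation test). Peaks of 200 bp, the smallest width in the lists, were 16.5%, 20.5% and 32.9% of the 4-cell lists and 7.45%, 12.2% and 10.3% of the 8-cell lists. The median width was 377, 338 and 262 bp in 4-cell libraries and 421, 353 and 352 bp in 8-cell libraries, which overlapped (p = 0.4, exact permutation test).

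**Figure D1:**
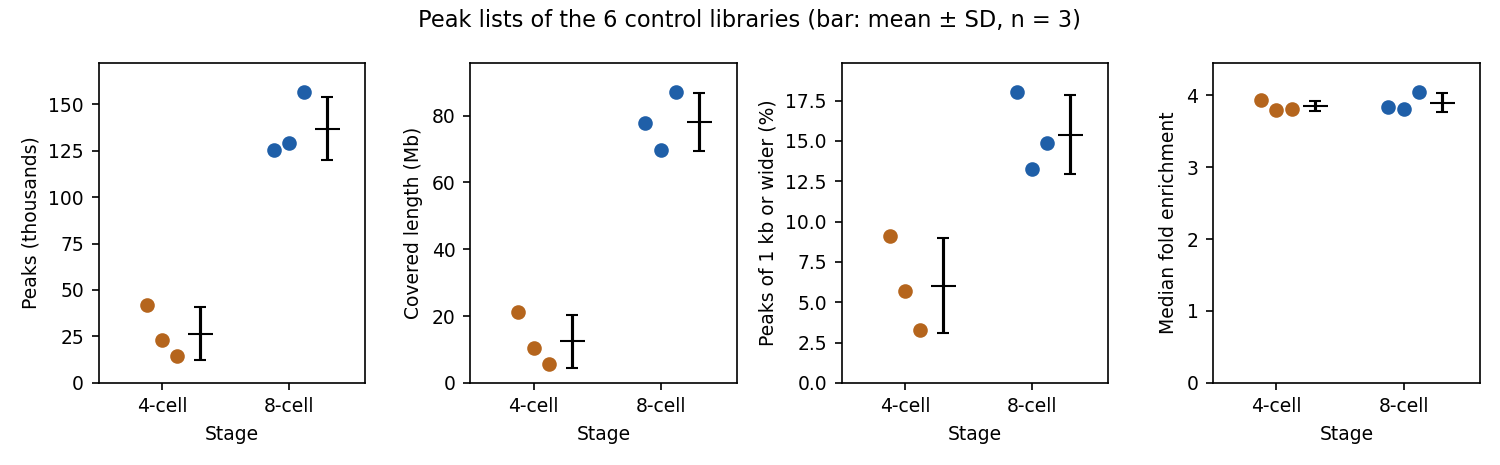
Number of peaks, covered length in Mb, percentage of peaks of 1 kb or wider and median fold enrichment of the 3 control libraries of 4-cell (brown) and of 8-cell embryos (blue). Points are libraries and bars are mean ± SD of 3 libraries. The first 3 measures separate the stages, while median fold enrichment lies between 3.80 and 4.05 in all 6 libraries.

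Depth moved with stage and touches each of these values. The lists do not state reads, but the background level of a library, the pileup expected at a position by chance and proportional to its tags, could be solved from the deposited fold enrichments and p-values. It was 0.494, 0.453 and 0.223 in 4-cell libraries and 1.31, 0.806 and 0.808 in 8-cell libraries, so that the lowest 8-cell level was 1.63 times the highest 4-cell level. When every list was scaled down to the level of 4-cell replicate 3, the 4-cell lists kept 15278, 7339 and 14355 peaks and the 8-cell lists 11776, 23389 and 39883. The ratio of peak numbers was then 2.03 and the stages overlapped. The ratio of covered lengths was then 3.02 without overlap, from 7.84, 2.95 and 5.56 Mb to 8.53, 14.98 and 25.9 Mb. Peaks that were left kept their deposited width, so that only their number was scaled. Covered length and background level parted within the 4-cell stage and between stages. Replicates 1 and 2 of the 4-cell stage, with levels of 0.494 and 0.453, covered 21.2 and 10.5 Mb. Morula replicate 1, with a level of 0.452, held 142231 peaks over 72.3 Mb, against 22983 peaks over 10.5 Mb in 4-cell replicate 2 with 0.453. Replicate 1 of germinal vesicle-stage (GV) oocytes, with a level of 0.247, covered 20.7 Mb, against 5.56 Mb in 4-cell replicate 3. Pairs across stages differ in stage as well, and the part of depth in the 4-cell to 8-cell difference was not tested.

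The difference in wide peaks was also present in lists cut to equal length or scaled to equal background level. Both settings dropped whole peaks and left the others at their deposited width. They therefore cannot tell width at equal depth, and the part of depth in width was not tested. Among the 14355 peaks with the largest −log10 p of each library, the share of at least 1 kb was 10.5%, 5.61% and 3.27% in 4-cell libraries and 25.6%, 20.4% and 21.6% in 8-cell libraries. In lists scaled to equal background level it was 10.0%, 5.11% and 3.27% against 22.8%, 19.1% and 19.6%. The stages were apart in both settings, with a difference of 16.1 and 14.4 percentage points. The median width also separated the stages under these settings, with ratios of 1.63 and 1.51.

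Peaks of the 8-cell stage were spaced more closely. The median gap between neighbouring peaks was 31.0, 60.7 and 97.8 kb in 4-cell libraries and 10.2, 11.4 and 8.98 kb in 8-cell libraries (ratio of means 0.161, exact permutation test, p = 0.1, no overlap). Gaps under 5 kb were 6.11%, 2.75% and 1.50% of all gaps in 4-cell libraries and 26.2%, 21.2% and 27.9% in 8-cell libraries. Autosomes held 337, 639 and 1099 gaps of at least 500 kb in the 4-cell lists and 11, 2 and 2 in the 8-cell lists. With equal numbers of top peaks the ratio of median gaps was 0.994, and in scaled lists 0.589, and the stages overlapped in both settings. Without peaks under a mean −log10 q of 3 it was 0.0516.

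The median fold enrichment as deposited was nearly the same at both stages, while many more peaks reached any moderate level at the 8-cell stage. Fold enrichment is the tag pileup over the local background, averaged over the peak, with a pseudocount of 1 on both. The pseudocount weighs more in shallow libraries, and medians over all peaks were not computed without it. In regions with a peak in all 6 libraries, medians without it were 8.52, 8.41 and 17.9 in 4-cell libraries. In 8-cell libraries they were 5.61, 6.54 and 6.82. The median over all peaks, as deposited, was 3.93, 3.80 and 3.81 in 4-cell libraries and 3.84, 3.81 and 4.05 in 8-cell libraries (ratio of means 1.01, exact permutation test, p = 0.6). The 90th percentile was 5.79, 5.10 and 5.09 against 5.65, 5.73 and 6.36 (ratio 1.11, exact permutation test, p = 0.3). Both measures overlapped between the stages. Their order turned with the threshold: once peaks under a mean −log10 q of 3 were dropped, the median was lower at the 8-cell stage without overlap (5.04, 5.13 and 5.34 against 4.39, 4.70 and 4.80), and among equal numbers of top peaks it was higher without overlap (5.15, 4.21 and 3.81 against 6.07, 6.42 and 7.26). Peaks enriched at least 5 times numbered 8165, 2624 and 1646 in 4-cell libraries and 22585, 24115 and 40841 in 8-cell libraries. At 15 times or more the lists held 16, 9 and 10 peaks against 12, 11 and 13. The median −log10 q, which grows with depth, was 2.42, 1.82 and 1.73 against 3.72, 2.90 and 3.60 (ratio 1.71, exact permutation test, p = 0.1, no overlap), and the ratio was 4.19 with equal numbers of top peaks.

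**Figure D2:**
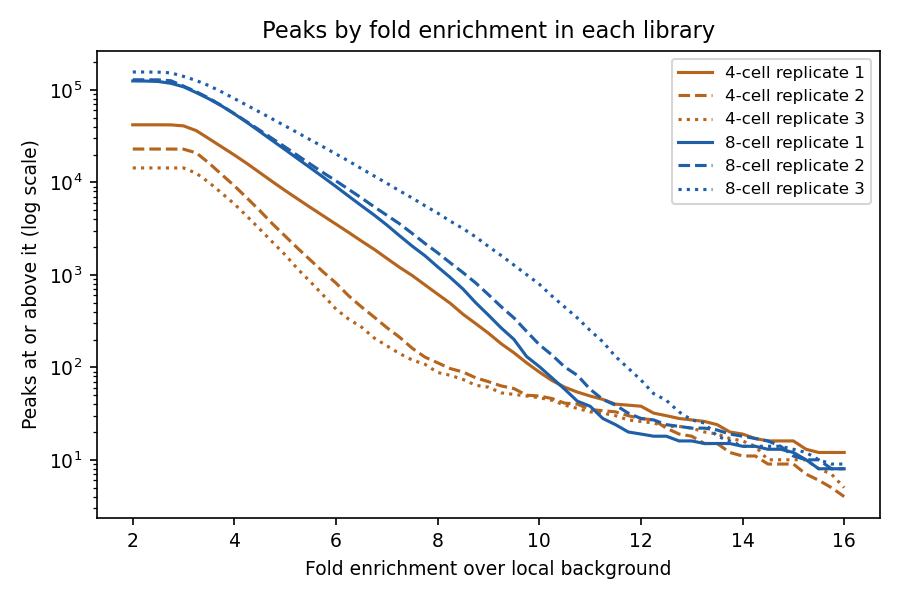
Number of peaks (log scale) at or above each fold enrichment in the 3 control libraries of 4-cell (brown) and 8-cell embryos (blue), with line types for replicates. The stages are apart at a fold enrichment of 5 and meet at 15, where each list holds between 9 and 16 peaks.

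Most 8-cell regions lay where 4-cell embryos had none, and most 4-cell regions were still present at the 8-cell stage. Regions of a stage were merged peaks found in at least 2 of its 3 libraries, 15117 in 4-cell and 120364 in 8-cell embryos. Of the 8-cell regions, 107555 (89.4%) shared no base with a 4-cell region and are called gained. Of the 4-cell regions, 2313 (15.3%) shared no base with an 8-cell region and are called lost, and 12804 (84.7%) were kept. The lost count changed with the libraries used and with the number of libraries in which a region had to be found, and so did the number of 4-cell regions. It was 494 of 6084 without 4-cell replicate 1, 813 of 8043 without 4-cell replicate 2 and 1463 of 12279 without 4-cell replicate 3. When regions had to be found in all 3 libraries of a stage, it was 450 of 5731. With equal numbers of top peaks, 9045 of 13419 8-cell regions (67.4%) were gained and 4877 of 9259 4-cell regions (52.7%) were lost. In scaled lists 17097 of 21837 (78.3%) were gained and 3061 of 7807 (39.2%) were lost. In these settings the gained share was smaller and the lost share larger than in the full lists. Gained regions outnumbered lost regions in every setting tried, and every setting also held more 8-cell than 4-cell regions. The order of these counts therefore follows list length and is no separate result. In the full lists, 15117 4-cell regions stood against 120364 8-cell regions, which also limits the 8-cell share that could overlap. With peaks of any replicate, 172893 of 205424 8-cell regions were gained and 25492 of 58432 4-cell regions were lost. Without peaks under a mean −log10 q of 3, the counts were 69148 of 72908 and 338 of 4103.

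Gained regions were narrower than the other 8-cell regions, and most lay more than 10 kb from any 4-cell region. Distances of random positions were not computed, so the distances below are not a trait of gained or lost regions. Their median width was 600 bp, against 1152 bp for the 12809 8-cell regions that overlapped a 4-cell region. The median distance from a gained region to the nearest 4-cell region was 57.4 kb, where the 4-cell regions themselves had a median gap of 77.7 kb. Of the gained regions, 12.5% lay within 10 kb of a 4-cell region and 0.580% within 1 kb. Lost regions had a median width of 525 bp and lay a median of 6.99 kb from the nearest 8-cell region, where 8-cell regions had a median gap of 10.9 kb.

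A peak of the 4-cell stage was kept more often the higher its enrichment. Of the peaks in 4-cell replicates 1, 2 and 3, 55.7%, 58.3% and 59.3% overlapped an 8-cell region (exact 95% binomial intervals at most 0.809 percentage points to either side, for counting error only). In the lowest quintile of each list (1 of 5 equal parts) by fold enrichment, the share was 29.3%, 39.7% and 34.5%. In the highest quintile it was 89.7%, 84.7% and 86.2%. The share was higher in each next quintile in all 3 libraries, and the highest quintile exceeded the lowest by 52.3 ± 7.69 percentage points (SD, n = 3). The excess was 14.8 points without peaks under a mean −log10 q of 3, and 33.0 points when peaks were ranked by width. Of the 1000 peaks with the largest fold enrichment, 97.4%, 93.4% and 90.5% were kept. Kept peaks were also wider, with medians of 467, 379 and 294 bp against 286, 279 and 201 bp for the others. Pairs of 4-cell libraries shared 0.462, 0.506 and 0.360 of the covered length of the shorter list. Pairs of a 4-cell and an 8-cell library shared 0.450 to 0.550, and pairs of 8-cell libraries 0.604 to 0.651. How far the kept share reflects the reproducibility of peaks within the 4-cell stage was not tested.

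Seen from the later stage, few 8-cell peaks had a predecessor, and list length limits this share. The 15117 4-cell regions stood against 125253, 128958 and 156569 peaks in 8-cell replicates 1, 2 and 3. Of the peaks in 8-cell replicates 1, 2 and 3, 10.3%, 9.59% and 8.07% overlapped a 4-cell region. The share was 5.03%, 3.46% and 3.26% in the lowest quintile by fold enrichment and 18.9%, 20.6% and 17.4% in the highest, a difference of 15.03 ± 1.84 percentage points (SD, n = 3). Without 4-cell replicate 1 the difference was 8.85 points, and without 4-cell replicate 2 it was 10.0 points. It was 7.86 points without peaks under a mean −log10 q of 3, and 8.82 points when 4-cell regions had to be found in all 3 libraries. When both stages were cut to equal numbers of top peaks, which left 9259 4-cell regions to overlap, it turned to −22.8 points. In the full lists, of the 1000 peaks with the largest fold enrichment, 32.9%, 36.4% and 32.2% overlapped a 4-cell region. Peaks with a predecessor were wider than the rest, with medians of 928, 758 and 832 bp against 382, 331 and 333 bp.

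**Figure D3:**
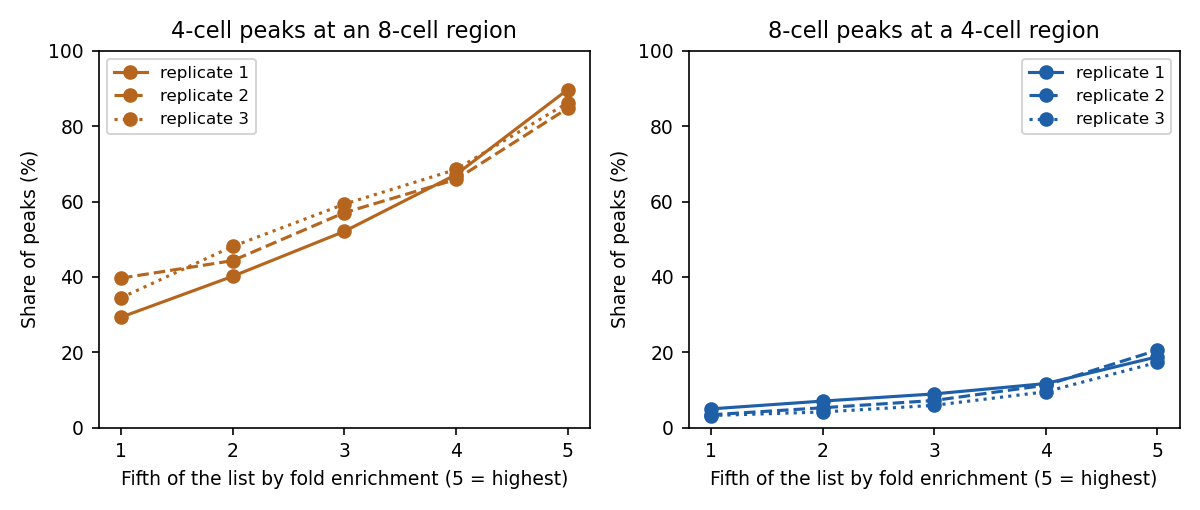
Percentage of 4-cell peaks that overlapped an 8-cell region (left) and of 8-cell peaks that overlapped a 4-cell region (right), by quintile of each list ranked by fold enrichment, with 1 line for each of 3 libraries. The left share rises from between 29.3% and 39.7% to between 84.7% and 89.7%, and the right one from between 3.26% and 5.03% to between 17.4% and 20.6%.

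A stricter view counts libraries. Merged over the 6 lists, peaks formed 230701 regions. A peak in all 3 8-cell and no 4-cell library was found in 58257 of them (25.3%), and a peak in all 3 4-cell and no 8-cell library in 108 (0.0468%). All 6 libraries had a peak in 5334 regions. Regions found in a single library were frequent, 79155 in 1 8-cell library alone and 23999 in 1 4-cell library alone. Of the regions in all 3 4-cell libraries, 5334 were in all 3 8-cell libraries, 221 in 2, 123 in 1 and 108 in none.

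By mean fold enrichment, the 10 leading regions of all 3 8-cell and no 4-cell libraries on placed chromosomes were 383 to 614 bp wide, with means between 10.9 and 11.9. The first was chr2:12364302-12364684 (ARS-UCD1.2), where fold enrichment was 11.7, 10.8 and 13.3 in 8-cell replicates 1, 2 and 3 (11.9 ± 1.28, SD, n = 3) and no 4-cell library had a peak. It was also found in 3 of 3 morula libraries, in 1 of 3 libraries of embryonic stem cells (ESC) and in no library of GV oocytes, 2-cell embryos, inner cell masses (ICM) or embryos cultured with α-amanitin. All 10 were open in each of the 3 morula libraries, and 7 of them also in each of the 3 ICM libraries. The values describe regions chosen for their enrichment and carry no test.

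Over all their peaks, the 108 regions of 4-cell libraries alone had a median fold enrichment of 4.10, close to the 4.34 of the 58257 regions of 8-cell libraries alone. The 10 of the 108 with the largest mean were 259 to 851 bp wide, with means between 5.12 and 5.93. The first was chr16:28965924-28966182, where fold enrichment was 6.16, 5.12 and 6.51 in 4-cell replicates 1, 2 and 3 (5.93 ± 0.725, SD, n = 3) and no 8-cell control library had a peak. GV oocytes had a peak there in 3 of 3 libraries, and so did 8-cell embryos cultured with α-amanitin. Of the 108 regions, 20.4% lay on unplaced scaffolds, against 0.282% of the 58257 regions of 8-cell libraries alone and 3.62% of the 5334 regions of all 6 libraries. Over all peaks the share was 2.11%, 2.43% and 2.65% in 4-cell libraries and 0.778%, 0.723% and 0.576% in 8-cell libraries.

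The 10 most enriched regions of all 6 libraries were 285 to 494 bp wide. The first was chr1:6042796-6043220, with 17.7, 17.4 and 15.5 in 4-cell and 18.3, 17.2 and 18.1 in 8-cell libraries, and peaks of 403 to 416 bp in all 6. At 9 of the 10, all 24 other libraries had a peak too, those of oocytes and of ESC included. Over the merged lists, 111 regions had a peak in all 30 libraries of the study. The seventh of the 10, chr8:34781950-34782352, had 10.5, 9.56 and 7.10 in 4-cell and 18.3, 17.3 and 18.0 in 8-cell libraries.

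Regions open at both stages were covered more broadly at the 8-cell stage. Within the 5334 regions of all 6 libraries, peaks covered a median of 636.5, 455 and 321 bp in 4-cell libraries and 1090, 894.5 and 990 bp in 8-cell libraries (ratio of means 2.11, exact permutation test, p = 0.1, no overlap). In lists scaled to equal background level, where 1867 regions were left in all 6 libraries, the ratio was 1.98, again without overlap. Peaks had their deposited widths there too, and the part of depth was not tested. Among the 5 widest regions with peaks in all 3 8-cell libraries, 3 lay on chromosome X. Chromosome X held 1.84% of the 5334 regions of all 6 libraries and 2.83% of the regions of 8-cell libraries alone. The 5 regions were picked for width, and an excess on chromosome X was not tested. At chrX:112819077-112824362, peaks covered 1280, 1430 and 472 bp in 4-cell libraries and 5201, 3315 and 5229 bp in 8-cell libraries. The widest, chr27:6219577-6225752, differed little, with 6090, 6111 and 6082 bp against 6176, 6162 and 6155 bp, a fold enrichment between 1.76 and 1.96, and a peak in all 30 libraries.

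The deposited fold enrichment of these shared regions did not separate the stages as a whole, but single regions differed in both directions. The median of the highest fold enrichment per region was 5.54, 4.41 and 4.24 in 4-cell and 4.73, 5.07 and 5.45 in 8-cell libraries (ratio 1.07, exact permutation test, p = 0.5). Without the pseudocount, which weighs more in shallow libraries, the medians were 8.52, 8.41 and 17.9 against 5.61, 6.54 and 6.82, lower at the 8-cell stage without overlap. With log2 fold enrichment centred on the median of each library, limma called 520 of 5334 regions (9.75%) higher and 483 (9.06%) lower at the 8-cell stage (Benjamini-Hochberg adjusted p under 0.05). The centring matters. Without it, 290 were higher and 71 lower, a share of higher calls of 80.3% in place of 51.8%, and the median log2 change was 0.091 in place of −0.020. Without the pseudocount the calls were 222 and 201, of which 185 and 171 were among the main calls in the same direction. They were 280 and 231 without 4-cell replicate 2, 290 and 247 without 8-cell replicate 1, 303 and 259 without 8-cell replicate 2, and 196 and 159 without 8-cell replicate 3.

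Regions with higher and with lower enrichment also differed in width. Regions called higher had a median width of 883.5 bp, and their median covered length was 447 bp as a mean over 4-cell libraries and 596.5 bp over 8-cell libraries. Regions called lower were wider (1882 bp), and their covered length was 483 bp in 4-cell and 1509 bp in 8-cell libraries. Fold enrichment is a mean over a peak, so that a peak that extends over weaker flanks has a lower value. The part of peak width in the lower calls was not tested. The largest rise was at chr11:21893983-21894678, with 3.62, 3.92 and 3.96 in 4-cell and 9.92, 9.79 and 11.5 in 8-cell libraries (centred log2 change 1.33, SE 0.159, limma adjusted p = 0.000283). The peaks of all 3 8-cell libraries were above those of all 3 4-cell libraries by more than the spread within either stage. The largest fall was at chr8:79458015-79460436, with 5.85, 5.66 and 6.50 against 2.46, 2.84 and 2.55 (centred log2 change −1.31, SE 0.161, limma adjusted p = 0.000283). Peaks there covered 975, 1229 and 421 bp in 4-cell and 2326, 2356 and 2231 bp in 8-cell libraries. The other 4 of the 5 largest rises were between 1.11 and 1.32 on the centred log2 scale, and the other 4 of the 5 largest falls between −1.01 and −1.17.

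Peaks of the 4-cell stage were concentrated toward the distal ends of autosomes, and those of the 8-cell stage were not. Cattle autosomes are acrocentric, and the distal end was taken as the end with the highest coordinates, at the last peak of any of the 30 lists. The covered share of the distal 5 Mb, divided by that of whole autosomes, was 1.76, 1.53 and 1.54 in 4-cell libraries and 1.06, 0.969 and 0.946 in 8-cell libraries (exact permutation test, p = 0.1, no overlap). The next 5 Mb gave 1.40, 1.2 and 1.32 against 1.06, 1.05 and 1.05. From 15 to 20 Mb the ratios were 1.17, 1.15 and 1.13 against 1.10, 1.10 and 1.09. From 20 to 25 Mb the 4-cell libraries were the lower ones, with 0.983, 0.975 and 0.970 against 1.06, 1.05 and 1.06. The ratio between the stages was 0.616. It lay between 0.574 and 0.677 over 4 alternatives, including lists scaled to equal background level (0.655) and equal numbers of top peaks (0.677), and the stages stayed apart in each. GV oocytes had 2.07, 2.37 and 2.11, morula 1.10, 1.21 and 1.2, and 8-cell embryos cultured with α-amanitin 2.66, 1.96 and 2.06.

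**Figure D4:**
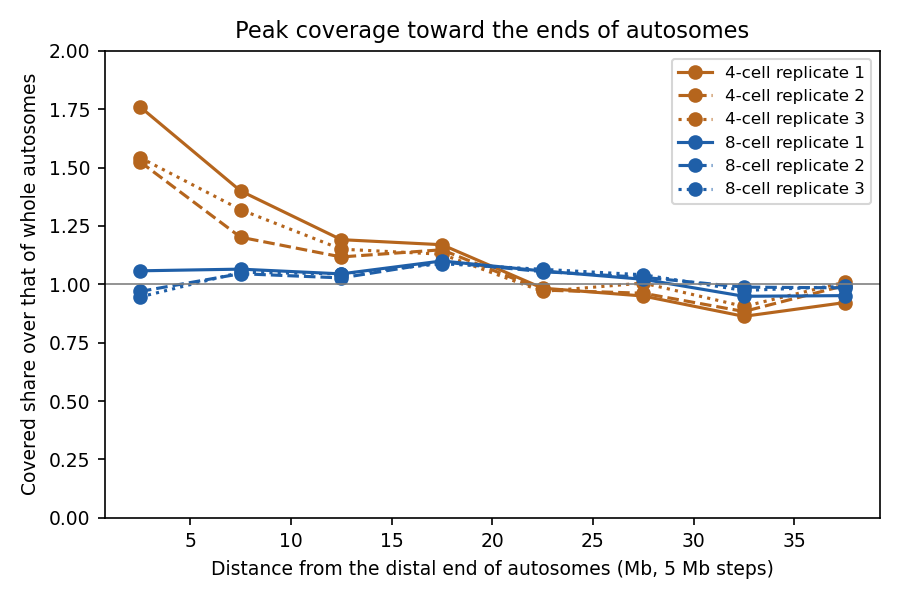
Covered share in 5 Mb steps from the distal end of the 29 autosomes, divided by the covered share of whole autosomes, in the 3 control libraries of 4-cell (brown) and 8-cell embryos (blue). In the last 5 Mb the 4-cell libraries sit between 1.53 and 1.76 and the 8-cell libraries between 0.946 and 1.06, and from 20 to 25 Mb the order is the other way, with 0.970 to 0.983 against 1.05 to 1.06.

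Covered length was higher at the 8-cell stage on every chromosome, by unequal factors. The ratio of mean covered shares ran from 5.09 on chromosome 27 to 7.91 on chromosome 6. On chromosome 6 peaks covered 0.373% ± 0.244 in 4-cell and 2.95% ± 0.336 in 8-cell libraries (SD, n = 3 each). On chromosome 18, the most densely covered at both stages, they covered 0.716% ± 0.435 and 3.83% ± 0.416, a ratio of 5.35. The coefficient of variation of covered share among the 29 autosomes was 17.9%, 17.6% and 19.5% in 4-cell libraries and 12.7%, 11.1% and 11.5% in 8-cell libraries (ratio 0.644, exact permutation test, p = 0.1, no overlap). With equal numbers of top peaks the ratio turned to 1.36, and in scaled lists to 1.01. Chromosome X was the least covered at both stages. Its covered share over that of autosomes was 0.487, 0.359 and 0.432 in 4-cell and 0.569, 0.511 and 0.527 in 8-cell libraries (ratio 1.26, exact permutation test, p = 0.1, no overlap), and the stages overlapped in lists scaled to equal background level (ratio 1.13) and with equal numbers of top peaks (1.07).

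The other 24 libraries were then read at the regions of all 3 libraries of 1 stage and none of the other. Regions of 8-cell libraries alone had a peak in 66.6%, 72.6% and 72.3% of cases in morula replicates 1, 2 and 3, and in 26.6% to 30.8% in ICM. In libraries before the 4-cell stage the share was 5.29% to 6.09% in GV oocytes and 0.0223% to 0.462% in 2-cell embryos, whose lists held 1002 to 6440 peaks. Embryos cultured with 50 µg/ml α-amanitin to the 8-cell stage (transcription blocked embryos, TBE) had a peak in 14.9%, 32.0% and 8.44%. The TBE library with 32.0% had a background level of 3.82, above that of any control library of the 8-cell stage.

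For the 108 regions of 4-cell libraries alone the order differed. They had a peak in 84.3%, 95.4% and 63.9% of cases in 8-cell TBE (exact 95% binomial intervals 76.0% to 90.6%, 89.5% to 98.5% and 54.1% to 72.9%, for counting error only). The absence of these regions from 8-cell control libraries was fixed by the way they were chosen, and is no result to set against TBE. GV oocytes had a peak in 47.2%, 44.4% and 34.3%, and morula in 26.9%, 47.2% and 24.1%. Regions of all 6 libraries had a peak in 93.2% to 94.7% of cases in GV oocytes, 97.3% to 98.8% in morula and 95.5% to 99.9% in 8-cell TBE, but in 7.63% to 34.6% in 2-cell embryos. These shares move with the length of each list and are given as a description.

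**Figure D5:**
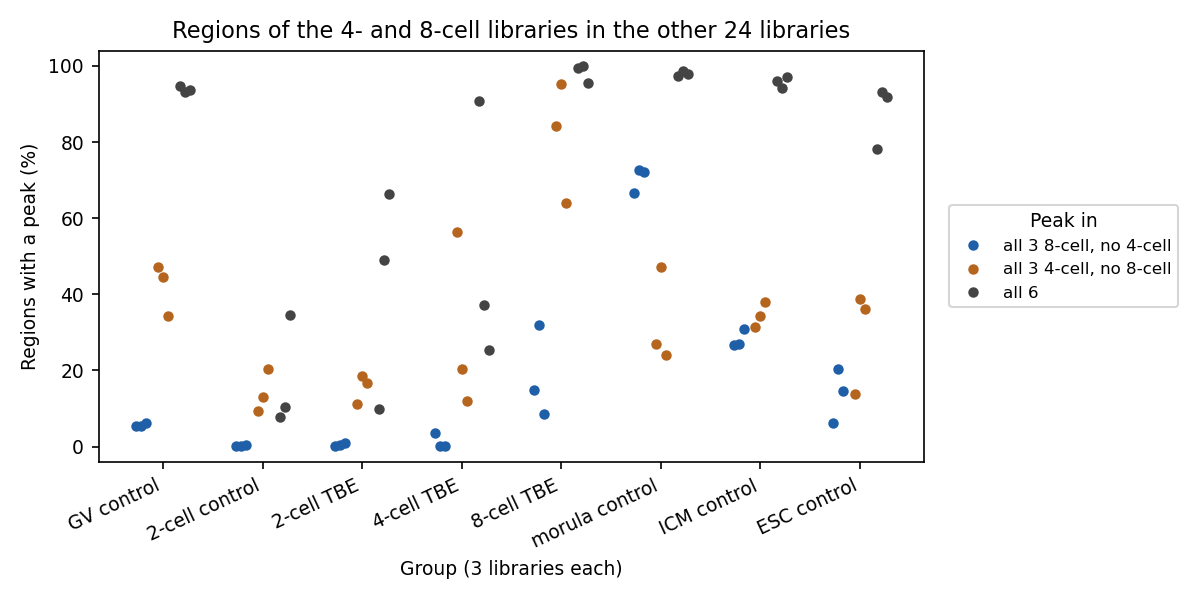
Percentage of regions with a peak in each of the 24 other libraries, for 58257 regions of all 3 8-cell and no 4-cell library (blue), 108 regions of all 3 4-cell and no 8-cell library (brown) and 5334 regions of all 6 (grey). Morula libraries hold 66.6% to 72.6% of the blue regions, and 8-cell TBE libraries hold 63.9% to 95.4% of the brown ones.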

How the data were processed

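The authors trimmed reads with Trim Galore, aligned them with BWA 0.7.17 to ARS-UCD1.2, removed duplicates, mitochondrial and low-quality alignments (SAMtools 1.7) and called broad peaks with MACS2 2.1.1. The deposited lists, 1 for each library, give the fold enrichment of each peak, a ratio of pileup to local background, and its −log10 p and −log10 q, as means over the peak. The paper's methods name a q value cutoff of 0.05, but the lists hold peaks with a mean −log10 q down to 1.00 to 1.03, weaker than that cutoff, and these peaks are part of every count except where a higher −log10 q is named. Pooling and subsampling of reads, as in the paper's peak sets, could not be repeated.

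Python 3.11.15 (numpy 2.4.6, pandas 2.3.3, scipy 1.17.1) and R 4.3.3 with limma 3.58.1 were used. Overlap meant at least 1 bp. In a region with several peaks of a library, the highest fold enrichment was taken. Means of libraries were tested by exact two-sided permutation. Whether p-values measure more than the spread between 3 collections cannot be told. Scaling multiplied the pileup and background of each peak by the ratio of background levels and kept peaks with a −log10 p of at least 3.43. Kept peaks retained their deposited start and end, and no peak was called again. Functions were tested on simulated data. Named regions were the 10 with the largest mean fold enrichment in each class by libraries, the 5 widest, and the 5 largest rises and falls called by limma, on chromosomes 1 to 29 and X. Members, regions and tests were chosen with earlier results of these data known. Alternatives are given in the closing section. Same-numbered libraries of the stages did not deviate together (correlations of −0.033, −0.012 and 0.013 over the regions of all 6 libraries), and the numbers were not treated as pairs. Promoters, genes, motifs and sequences were not analysed here, since no genome or annotation of ARS-UCD1.2 was used.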

Additional observations from a re-analysis of the deposited data

How the results depend on the processing

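Over 222 alternatives to 19 results, 164 were counted as unchanged, and the cause of the others was not tested. Comparisons of stages had to keep their direction and whether the stages overlapped (for the replicate block, whether all pairs had the same sign). Counts had to stay within 1.5 times, and differences between quintiles within the SD over libraries of the main value. In lists scaled to the lowest background level, the ratio of 8-cell to 4-cell was 2.03 for the number of peaks, 1.51 for median width, 0.589 for the median gap, 0.979 for median and 0.956 for 90th percentile of fold enrichment, 1.01 for the spread among autosomes, 1.13 for chromosome X and 0.963 for fold enrichment in regions of all 6 libraries, and 17097 regions were gained. With equal numbers of top peaks it was 1.63 for width, 0.994 for the gap, 1.499 and 1.44 for median and 90th percentile of fold enrichment, 1.36 for the spread and 1.07 for chromosome X, 9045 regions were gained and 4877 lost, and the share of 8-cell peaks with a predecessor differed by −22.8 points between top and bottom quintile. Without peaks under a mean −log10 q of 3, the 2 fold enrichment ratios were 0.895 and 0.980, that in regions of all 6 libraries 0.978, 69148 regions were gained, 338 lost, 124 of 1060 regions left were higher and 121 lower (11.7% and 11.4%), and the differences between quintiles were 14.8 (kept) and 7.86 points (predecessor). With a fold enrichment of at least 3 the median ratio was 1.06 without overlap. Regions from any replicate gave 172893 of 205424 gained, 25492 of 58432 lost and 17.3 points for predecessors. Regions from all 3 gave 450 of 5731 lost and 8.82 points. Ranked by width, the differences were 33.0 and 20.4 points. Without centring, limma called 290 higher and 71 lower, and without the pseudocount 222 and 201, with a ratio of medians of 0.545.

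Leaving out 1 library gave between 494 of 6084 and 3222 of 15117 4-cell regions lost, and 8.85 to 15.6 points for predecessors. It gave 196 to 549 higher and 159 to 588 lower regions. Ratios were 1.05 to 1.25 for width and 0.994 to 1.02 for median fold enrichment. They were 1.07 to 1.16 for its 90th percentile, and 1.02 to 1.17 for its median in regions of all 6 libraries. The replicate block, with numbers that share no stated collection between stages, left 508 higher and 479 lower regions, and gave a width ratio of 1.16 with the 8-cell library wider in 3 of 3 pairs and 5.67 times as many peaks. Its sign-flip test cannot go below p = 0.25 (exact), and it changed no other outcome. Distal ends, covered length and the share of peaks of at least 1 kb kept their order in every alternative tried. No alternative called peaks again, so that widths stayed as deposited in all of them. Alternatives for distal ends, spread among autosomes, chromosome X, and covered length and median fold enrichment in regions of all 6 libraries were chosen after seeing the data. Promoters and motifs were not run. At equal background level the stages overlapped in the number of peaks, the median gap, the spread among autosomes and chromosome X, where the full lists did not.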
